A study of Mus musculus with 10 samples.

Results

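The strongest places bound by the muscle transcription factor Myf5 that carried no called MyoD peak are described here: 2593 regions of the 93787 in the Myf5 list, or 2.76%. They were chosen by 3 measured values, namely a Myf5 maximum coverage of 80 or more, no overlap of even 1 bp with a MyoD peak, and none with a peak of the MyoD mock precipitation. Of the 32005 Myf5 peaks that reached a coverage of 80, 29410 overlapped a MyoD peak and are called shared below. Another 2 overlapped a MyoD mock peak and were left out, so the regions described made up 8.10% (7.81% to 8.41%) of the strong Myf5 peaks. Maximum coverage is the authors' highest read depth within a peak and was compared only inside its own list.

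Chromatin immunoprecipitation with sequencing was done in mouse embryonic fibroblasts of the genotype MyoD-/-; Myf5-/-, called M&M MEFs in the labels. The cells carried a lentivirus with Myf5, MyoD or green fluorescent protein (GFP), spent 24 h in growth medium and 20 h in differentiation medium, and were then collected. Peak lists came from Myf5 precipitated in cells with Myf5, MyoD precipitated in cells with MyoD, acetylated histone H4 (H4Ac) in cells with MyoD, Myf5 or GFP, and mock precipitations with either factor antibody in cells with GFP. All groups lack the endogenous genes for both factors, so each factor was present only from its transgene, the same cells with GFP being the control. Each group had 1 list, the titles of the Myf5 and MyoD lists name 2 replicates together, and no error between replicates could be computed; intervals are 95% intervals that cover counting error only. Sequencing depth is unknown from these lists, and positions are read as mouse build mm9.

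Myf5 and MyoD are basic helix-loop-helix proteins that pair with E proteins and bind E-box sequences, and together with Myf6 and myogenin they specify and differentiate skeletal muscle. Myf5 acts among the earliest of them in the embryo. Acetylation of the histone H4 tail loosens nucleosome packing and marks active promoters and enhancers, and MyoD is known to bring acetyltransferases such as PCAF to its targets. The comparison asks whether strong Myf5 sites without a MyoD peak differ in sequence composition, surroundings and acetylation from Myf5 sites of equal strength that have one. Shared peaks were therefore weighted to have the same Myf5 coverage, value by value, as the sites without MyoD (18109 shared peaks carried weight).

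Strong sites without a MyoD peak lay mostly toward the lower end of the strong Myf5 list, where shared peaks were still the majority. Their coverage ran from 80 to 244 with a median of 92, against a range of 80 to 3723 and a median of 155 at shared peaks. Under a coverage of 100 lay 66.2% of the sites without MyoD and 17.8% of the shared ones, and 7666 shared peaks exceeded the strongest site without MyoD. The share of Myf5 peaks without a MyoD or MyoD mock peak was 54.1% over the whole list. It was 45.7% at a coverage of 60 to 79, 28.3% at 80 to 89, 20.02% at 90 to 99, 11.7% at 100 to 119, 4.94% at 120 to 149, 1.43% at 150 to 199 and 0.393% at 200 to 249. Of the 7418 peaks of 250 or more none belonged to the class, which allows a share of up to 0.0404% as 3 counts of the total and 0.0497% as the exact upper limit. These values follow from the way the sites were chosen and are a description.

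**Figure D1:**
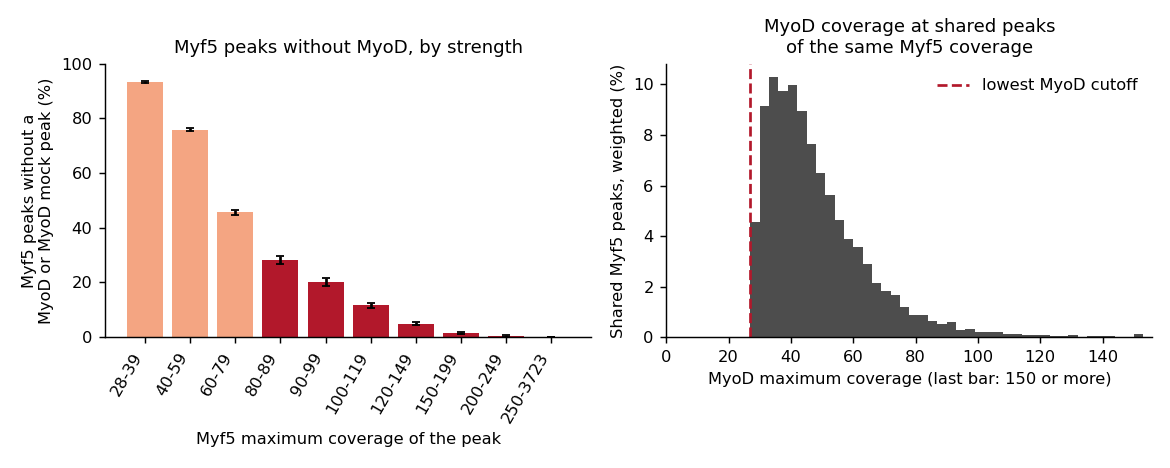
Left, share of Myf5 peaks without a MyoD or MyoD mock peak (vertical axis, %) in classes of Myf5 maximum coverage (horizontal axis), with exact 95% intervals; dark red bars are the strong classes of 80 or more, from 28.3% at 80 to 89 down to 0 of 7418 at 250 or more. Right, distribution of MyoD maximum coverage (horizontal axis) over shared peaks weighted to the Myf5 coverage of the sites without MyoD (vertical axis, %), with the lowest MyoD cutoff of 27 dashed; the median is 44.

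The limits of the choice can be seen on both sides. At a Myf5 coverage of 80, 138 of 415 peaks had no MyoD peak (33.3%), and at 79, just outside, 160 of 459 (34.9%). A MyoD peak was called only above a coverage cutoff of 27 to 30 that depended on GC content. At shared peaks weighted to the same Myf5 coverage, MyoD coverage had a median of 44 with quartiles of 36 and 55. It was under 30 at 4.57% and under 40 at 37.2% of them. The median MyoD coverage of shared peaks rose with Myf5 coverage, from 41 at a Myf5 coverage of 80 to 89 to 47 at 100 to 119, 71 at 150 to 199 and 91 at 200 to 249. The deposited lists hold no MyoD coverage below the cutoff, so a site without a MyoD peak may still have had MyoD reads. Few sites lay near the limit in position: 3 sites without MyoD had a MyoD peak less than 50 bp away and 126 (4.86%) less than 500 bp away. Among all strong shared peaks, 4 overlapped their MyoD peak by 200 bp or less, and the weighted median overlap was 590 bp.

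The 10 strongest sites without MyoD had coverages of 206 to 244, and none overlapped an H4Ac peak in any of the 3 cell populations. The same held for 92.1% of all 2593 sites, so these 10 alone cannot set the strongest apart. The strongest of all was at chr2:127871406-127872831, with a Myf5 coverage of 244 and a control coverage of 20, the nearest MyoD peak being 69709 bp away. Even this site ranked only 7668 in the whole Myf5 list. The next were at chr6:100128273-100129176 (coverage 225), at chr17:75452741-75453501 (221) and at chr19:3823622-3825013 (215). These 3 were the only ones of the 10 with a MyoD peak within 10 kb, at 3977, 2313 and 7894 bp.

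The other 6 lay farther from MyoD. They were at chr11:12101781-12102605 (coverage 210), chr5:3450420-3450898 (210), chr17:6409866-6410344 (207), chr2:126984157-126985476 (207), chr14:41813919-41814688 (206) and chr16:90703406-90704962 (206). Their gaps to the nearest MyoD peak were 10445 to 56088 bp. Control coverage of the 10 sites was 9 to 20, and the median control coverage of all 2593 was 11. The 2 strong peaks that were left out for their MyoD mock peak were at chr12:86958874-86960279, with a Myf5 coverage of 363 and a mock coverage of 43, and at chr5:33071380-33072241 (108 and 26). Neither carried an H4Ac peak.

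H4Ac was called far less often at strong Myf5 sites without MyoD than at shared sites of equal Myf5 strength, and this held in all 3 cell populations. In cells with MyoD, 150 of the 2593 sites overlapped an H4Ac peak (5.78%, 4.92% to 6.75%), against 17.3% (16.6% to 18.1%) of the weighted shared sites and 13.6% of all Myf5 peaks. The difference was -11.5 percentage points (-12.7 to -10.4), and the share was 0.334 times that of shared sites. In cells with Myf5 the count was also 150 (5.78%, 4.92% to 6.75%), against 15.2% (14.5% to 15.9%) of shared sites and 11.9% of all Myf5 peaks, a difference of -9.42 points (-10.6 to -8.27). In cells with GFP, which contain neither factor, it was 137 (5.28%, 4.45% to 6.22%), against 15.2% (14.4% to 15.9%) of shared sites and 11.6% of all Myf5 peaks, a difference of -9.87 points (-11.0 to -8.75). The lower share was thus present in the cells that had received no muscle factor. Against only those shared sites whose MyoD coverage was under 35, an alternative added after seeing the data, the differences were smaller, at -5.70 points in cells with MyoD, -5.16 with Myf5 and -4.70 with GFP. With H4Ac peaks of at least 1.5 times their cutoff they were -7.20, -5.82 and -6.62 points, and no interval included 0 under any alternative tried.

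**Figure D2:**
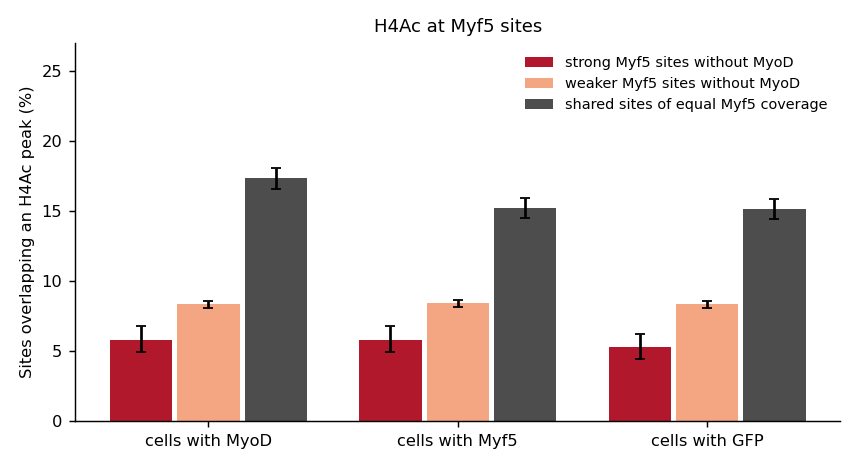
Share of Myf5 sites that overlap an H4Ac peak (vertical axis, %) in cells with MyoD, Myf5 and GFP (horizontal axis), for strong sites without MyoD (dark red), weaker Myf5 sites without MyoD (light red) and shared sites weighted to equal Myf5 coverage (grey); bars show 95% intervals from counting error. Strong sites without MyoD lie at 5.28% to 5.78%, below the weaker sites (8.33% to 8.40%) and the shared sites (15.2% to 17.3%).

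Strong sites without MyoD were marked less often even than weak ones. Among the 48136 Myf5 peaks under a coverage of 80 with neither a MyoD nor a MyoD mock peak, 8.33% (8.08% to 8.58%) were marked in cells with MyoD, 8.40% (8.15% to 8.65%) in cells with Myf5 and 8.34% (8.09% to 8.59%) in cells with GFP. The strong sites differed from them by -2.54 points (-3.48 to -1.61), -2.61 points (-3.55 to -1.68) and -3.06 points (-3.95 to -2.16). In cells with Myf5, the share without MyoD was 8.00% at a Myf5 coverage of 28 to 39, 8.91% at 40 to 59, 8.68% at 60 to 79, 6.36% (4.99% to 7.97%) at 80 to 89, 6.17% at 90 to 99, 5.43% at 100 to 119 and 4.55% (2.29% to 7.99%) at 120 to 149. At shared sites, unweighted, it was 10.7% at 28 to 39, 14.9% at 80 to 89 and 15.5% at 120 to 149. Of the 83 sites without MyoD at 150 or more, 1 had an H4Ac peak, and that one had it in all 3 populations (1.20%, 0.0305% to 6.53%). At shared sites of 150 to 249, unweighted, the shares were 20.5% in cells with MyoD, 16.3% with Myf5 and 15.2% with GFP. The intervals of neighbouring strong classes without MyoD overlapped, and a trend over these classes was not tested.

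**Figure D3:**
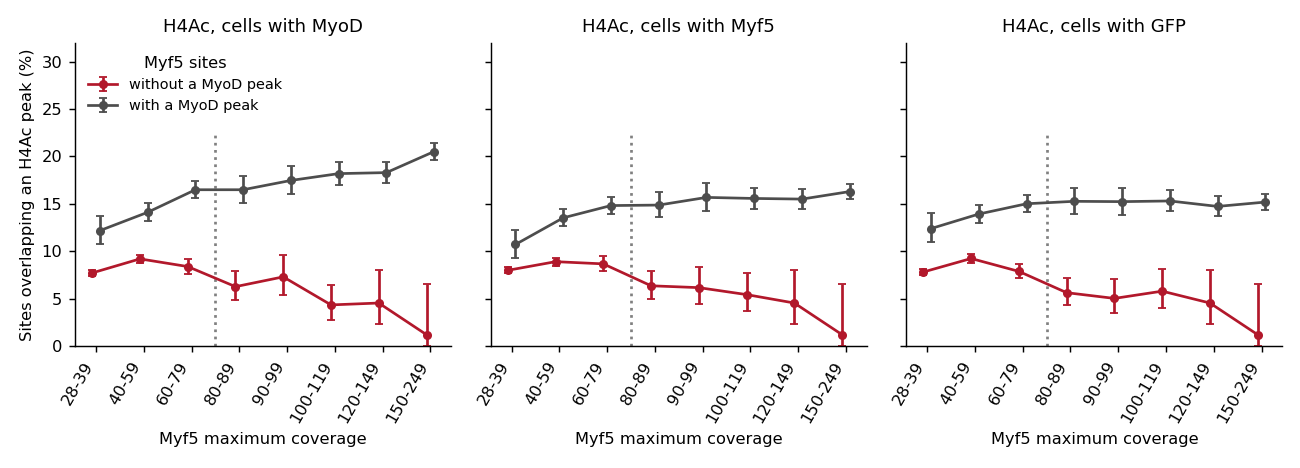
Share of Myf5 sites that overlap an H4Ac peak (vertical axis, %) in classes of Myf5 maximum coverage (horizontal axis), for sites without (red) and with (grey) a MyoD peak, in 1 panel per H4Ac list; bars are exact 95% intervals and the dotted line marks a coverage of 80. With a MyoD peak the share lies at 14.7% or more in every class from 80 up, and without one it is 7.31% or less there.

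The lower share was seen at every width and, beyond the intervals, in the 3 middle bins of GC content. In the GC bin of 45% to 50%, 5.72% (4.33% to 7.40%) of the sites without MyoD carried an H4Ac peak when MyoD was present, against 21.6% (20.2% to 23.03%) of shared sites, and in the bin of 50% to 55%, 6.39% (4.29% to 9.11%) against 20.2% (18.1% to 22.3%). In the bin of at most 40% GC the intervals overlapped in all 3 lists, with 4.91% (2.64% to 8.24%) against 9.74% (8.13% to 11.3%) in cells with MyoD and 7.55% (4.67% to 11.4%) against 9.53% (7.94% to 11.1%) in cells with Myf5. They also overlapped in all 3 lists in the bin over 55% GC, which held 49 sites, with 12.2% (4.63% to 24.8%) against 18.6% (13.9% to 23.3%) in cells with MyoD. The shares themselves were lower than at shared sites in both bins and all 3 lists. Overlap of separate intervals is no test of a difference, and intervals of these differences were not computed. Wider peaks overlap more easily, and the share rose with width in both classes. In cells with Myf5 it was, for widths of up to 600 bp, 2.40% (1.04% to 4.68%) without MyoD and 7.35% (5.54% to 9.16%) at shared sites. Above 1000 bp it was 10.5% (8.47% to 12.9%) and 23.4% (22.0% to 24.8%). By distance to MyoD, 7.35% (4.41% to 11.4%) of the 245 sites less than 1 kb from a MyoD peak and 6.44% (3.80% to 10.1%) of the 264 sites at least 50 kb away were marked in cells with MyoD. In cells with Myf5 the shares were 8.98% (5.71% to 13.3%) and 6.44% (3.80% to 10.1%), and the intervals overlapped in both lists.

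The share with H4Ac also followed the MyoD coverage of shared sites, a split added after the first results were known. Weighted to the Myf5 coverage of the sites without MyoD, shared sites with a MyoD coverage of 27 to 29 carried H4Ac in cells with MyoD in 10.8% (7.84% to 13.7%), those of 30 to 34 in 11.6% (10.1% to 13.1%), those of 40 to 49 in 15.8% (14.4% to 17.2%) and those of 70 to 99 in 23.6% (19.9% to 27.3%). In cells with GFP the same classes had 9.04% (6.34% to 11.7%), 10.2% (8.71% to 11.7%), 14.5% (13.2% to 15.8%) and 19.1% (15.7% to 22.5%). Sites without a MyoD peak, at 5.78% and 5.28%, lay under the weakest class in both lists. The classes from 27 to 34 had overlapping intervals.

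**Figure D4:**
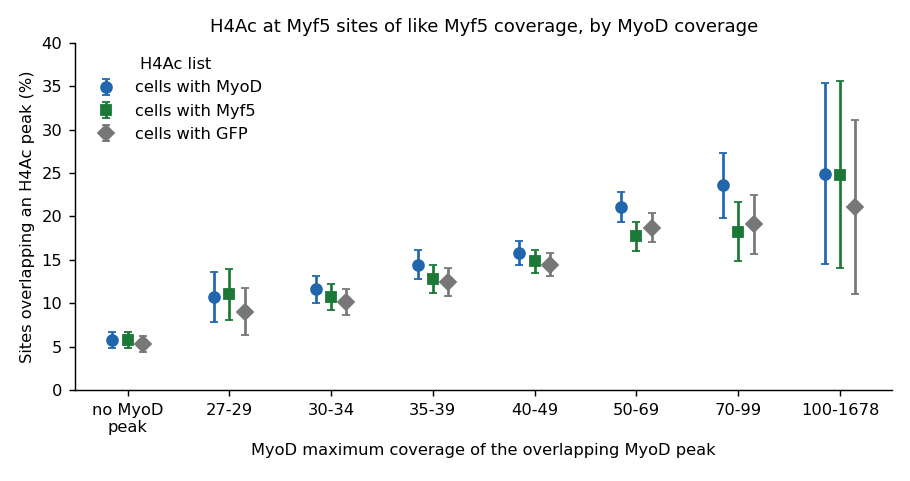
Share of Myf5 sites that overlap an H4Ac peak (vertical axis, %) for strong sites without a MyoD peak (leftmost) and for shared sites in 7 classes of MyoD maximum coverage (horizontal axis), weighted to like Myf5 coverage in steps of 10; symbols are the 3 H4Ac lists and bars 95% intervals. The sites without MyoD lie at 5.28% to 5.78% and the shared classes run from 9.04% upward.

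At the few sites that were marked, calls in all 3 populations were the most frequent pattern, and the median H4Ac coverage was slightly lower than at shared sites of equal Myf5 coverage. An H4Ac peak in at least 1 list was found at 204 sites without MyoD (7.87%, 6.86% to 8.97%), against 20.7% (19.9% to 21.5%) of shared sites and 16.5% of all Myf5 peaks. Of the 204, 92 were marked in all 3 populations (45.1%, against 54.99% of the marked shared sites), 17 with MyoD and Myf5 but not GFP, 23 with MyoD only, 27 with Myf5 only and 13 with GFP only. The other patterns were MyoD and GFP (18 sites) and Myf5 and GFP (14 sites). Myf5 only made up 1.04% of sites without MyoD, against 1.39% of shared sites and 1.18% of all Myf5 peaks. Myf5 and GFP made up 0.540%, against 0.686% and 0.580%. For both of these patterns the interval of the difference included 0 (-0.818 to 0.111 and -0.482 to 0.190). The remaining marked patterns lay at 0.312 to 0.392 times the share of shared sites, with intervals of the difference under 0. The median H4Ac coverage at marked sites was 30 (28 to 33) in cells with MyoD, against 35 at marked shared sites weighted to equal Myf5 coverage. It was 35 (33 to 40) against 41 in cells with Myf5 and 39 (35 to 42) against 43 in cells with GFP, each weighted median lying just above the interval. Relative to the calling cutoff the medians were 1.36 times (1.25 to 1.52) against 1.59 times with MyoD, 1.41 (1.33 to 1.56) against 1.63 with Myf5 and 1.46 (1.38 to 1.67) against 1.71 with GFP. The whole lists had medians of 1.37, 1.38 and 1.42 times their cutoffs.

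Changes against cells with GFP were small in either direction. An H4Ac peak in cells with MyoD but not GFP was called at 40 sites without MyoD (1.54%, 1.10% to 2.09%), against 4.16% (3.77% to 4.55%) of shared sites and 3.7% of all Myf5 peaks. The difference was -2.61 points and ran from -6.27 to -1.46 over the alternatives tried. The reverse, a peak with GFP but not MyoD, occurred at 27 (1.04%, 0.687% to 1.51%), against 2.00% (1.71% to 2.29%) of shared sites and 1.67% of all Myf5 peaks. With Myf5 but not GFP it was 44 (1.70%, 1.24% to 2.27%), against 3.13% (2.78% to 3.47%) and 2.68% of all Myf5 peaks, a difference from shared sites of -1.43 points that was -0.612 with a coverage floor of 60 and -3.40 with one of 120. With GFP but not Myf5 it was 31 (1.20%, 0.814% to 1.69%), against 3.09% (2.73% to 3.44%) and 2.33% of all Myf5 peaks. Among sites marked in any list, a peak with MyoD but not GFP made up 19.6%, against 20.1% of marked shared sites. The reverse made up 13.2% against 9.67%. Myf5 but not GFP made up 21.6% against 15.1%, and the reverse 15.2% against 14.9%. The share in cells with MyoD minus that in cells with GFP was thus 0.501 points (-0.117 to 1.12) at sites without MyoD and 2.15 points (1.68 to 2.63) at shared sites, and these differed by -1.65 points (-2.43 to -0.870). The list from cells with MyoD is longer than that from cells with GFP (36864 and 31120 peaks). With the 3 lists shortened by coverage to 31120 peaks each, the net was 0 points (-0.605 to 0.605) at sites without MyoD and 0.844 points (0.388 to 1.30) at shared sites, a difference of -0.844 points (-1.60 to -0.0862). For cells with Myf5 minus cells with GFP the values with all peaks were 0.501 points (-0.153 to 1.16) and 0.0427 points (-0.448 to 0.533), and their difference of 0.459 points (-0.359 to 1.28) included 0. Both rest on the same list from cells with GFP.

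Of the sites marked in cells with Myf5 only, the strongest lay at chr6:91160998-91162139 (Myf5 coverage 117, H4Ac coverage 30), at chr1:166976728-166977394 (109 and 31) and at chr15:73290034-73290820 (108 and 35). The strongest marked in cells with MyoD only were at chr17:28468083-28469000 (Myf5 coverage 109, H4Ac coverage 27), chr13:35976273-35977465 (102 and 31) and chr7:70978600-70979172 (100 and 21). Marked with both factors but not GFP were sites at chr17:6432378-6433381 (Myf5 coverage 129), chr12:105423948-105425254 (110) and chr11:28634827-28635530 (103). The control coverage of the first of these 3 was 27, near the highest of 28 among all sites without MyoD. All of these had a Myf5 coverage of 129 or less and an H4Ac coverage of 35 or less.

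In all 3 populations H4Ac was strongest, among the 3 sites named by Myf5 coverage, at chr7:70961103-70962365. Its H4Ac coverage was 110 with MyoD, 119 with Myf5 and 114 with GFP, at a Myf5 coverage of 137 and 46458 bp from the nearest MyoD peak. The others were at chr14:43763189-43764169 (Myf5 coverage 152, H4Ac coverages 27, 29 and 29) and at chr15:83098399-83099441 (134, and 24, 30 and 33). The chromosome 14 site is the single marked one at a Myf5 coverage of 150 or more and lay 342046 bp from a MyoD peak.

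Base composition differed modestly. Of the sites without MyoD, 10.2% (9.08% to 11.4%) had a GC content of 40% or less, against 14.1% (13.4% to 14.9%) of shared sites of equal Myf5 coverage, a difference of -3.93 points (-5.29 to -2.57). Among sites with a Myf5 coverage of 120 or more it was -0.909 points (-4.50 to 2.69). More of them lay in the bins of 45% to 50%, at 36.4% against 33.9% (difference 2.54 points, 0.465 to 4.62), and 50% to 55%, at 16.9% against 14.04% (2.85 points, 1.26 to 4.45). The bin of 40% to 45% held 34.6% against 35.4%, with an interval that included 0 (-2.83 to 1.30), and the bin over 55% held 1.89% against 2.59% (-0.698 points, -1.31 to -0.0837). The calling cutoffs rose with GC, to 29 and 32 for Myf5 and 28 and 30 for MyoD in the bins over 50%. With shared sites weighted by coverage over the cutoff in place of coverage, the difference for 50% to 55% GC was -0.224 points (-1.82 to 1.37), so the excess was not seen under that weighting.

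The strongest site in the bin over 55% GC lay at chr2:32073861-32074781 (Myf5 coverage 151). The next were at chr19:6453183-6454015 (141) and chr11:119906647-119907921 (135). The strongest at 40% GC or less were at chr3:67880228-67881023 (178), chr2:159862287-159863106 (171) and chr13:25693293-25693849 (167). None of these 6 overlapped an H4Ac peak, like 92.1% of all sites without MyoD.

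**Figure D5:**
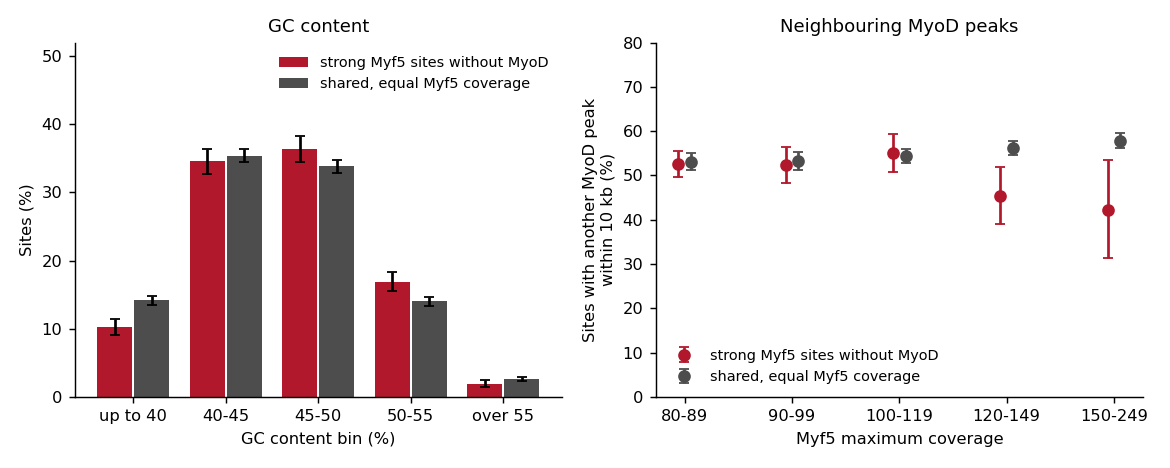
Left, share of sites (vertical axis, %) in the authors' 5 bins of GC content (horizontal axis) for strong sites without MyoD (dark red) and shared sites weighted to equal Myf5 coverage (grey). Right, share of sites with another, non-overlapping MyoD peak within 10 kb (vertical axis, %) in classes of Myf5 maximum coverage (horizontal axis). Bars are 95% intervals; from a coverage of 120 up, the sites without MyoD (45.5% and 42.2%) lie below the shared ones (56.3% and 57.9%).

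Peaks without MyoD were slightly narrower, and their control coverage did not differ detectably. The median width was 830 bp (812 to 841), against 863 bp at weighted shared sites, and 16.1% against 20.6% were at least 1200 bp wide (difference -4.50 points, -6.12 to -2.88). That difference was -1.46 points with a coverage floor of 60, and with one of 120 it was -1.23 points with an interval that included 0. Control coverage had a median of 11 in both classes. It reached 10 at 69.9% against 70.3% of sites (-0.353 points, -2.34 to 1.64) and 20 at 0.578% against 0.384% (0.194 points, -0.133 to 0.522). None of the sites overlapped a Myf5 mock peak. That mock list held only 1359 peaks, and no share over all Myf5 peaks is given here, so this does not set the sites apart.

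Neighbouring MyoD peaks within 1 kb were somewhat rarer at sites without MyoD than at shared ones. Within 10 kb and 50 kb the intervals of the main differences included 0. The amounts depended on Myf5 coverage and on the weighting. The nearest MyoD peak was at a median gap of 9337 bp (8547 to 9945), against 8553 bp from shared sites to their nearest other, non-overlapping MyoD peak. Such a peak within 1 kb was found for 9.45% against 11.9% (-2.46 points, -3.77 to -1.16), but the interval included 0 with a coverage floor of 60 (-0.610 points) or 100 (-1.28), and between peak centres the difference was -0.625 points. Within 10 kb it was found for 52.1% against 53.9% (-1.78 points, -3.95 to 0.380). With shared sites weighted also by GC bin that difference was -3.05 points, and weighted by coverage over the cutoff it was -2.78 points, both with intervals under 0. Within 50 kb such a peak was found for 89.8% against 90.6% (-0.742 points, -2.05 to 0.564). Over all Myf5 peaks the shares were 10.7% within 1 kb, 52.9% within 10 kb and 89.9% within 50 kb. At a Myf5 coverage of 120 to 149, 110 of 242 sites without MyoD had a MyoD peak within 10 kb (45.5%, 39.1% to 51.96%), against 56.3% (54.7% to 57.9%), and at 150 to 249, 35 of 83 (42.2%, 31.4% to 53.5%), against 57.9% (56.2% to 59.6%). The classes from 80 to 119 had intervals of the difference that included 0. Another Myf5 peak lay within 10 kb of 79.5% of sites without MyoD, against 77.6% of shared sites (1.93 points, 0.164 to 3.69). Within 1 kb it was 23.1% against 25.7% (-2.59 points, -4.44 to -0.751). Over all Myf5 peaks these shares were 76.2% and 23.8%. By class, the 10 kb difference had an interval above 0 only at a Myf5 coverage of 100 to 119 (4.48 points, 1.04 to 7.93). The strongest class had 79.5% (69.2% to 87.6%) against 80.7% (79.4% to 82.1%), with an interval of the difference that included 0 (-10.0 to 7.56).

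The sites farthest from any MyoD peak were at chr12:28152696-28153409 (989146 bp away, Myf5 coverage 90), chr5:51587739-51588437 (927565 bp, 123) and chr13:68711702-68712248 (791727 bp, 82). The chromosome 5 site had another Myf5 peak at 2299 bp, while the other two were 76622 and 34644 bp from one. None had an H4Ac peak, like 92.1% of all sites without MyoD.

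Strong sites without MyoD were spread over all 19 autosomes and the X chromosome. They made up between 5.42% (4.37% to 6.64%) of the strong Myf5 peaks on chromosome 3 and 11.2% (9.51% to 13.1%) on chromosome 14, where 138 of 1230 belonged to the class. Chromosomes 10 (5.69%) and 16 (5.64%) were close to the lowest share, and chromosomes 7 (10.1%) and 8 (9.84%) followed the highest. These shares, being those by which the sites were chosen, carry no test. The X chromosome held 55 sites (2.12%, 1.60% to 2.75%), against 1.86% (1.59% to 2.14%) of the weighted shared sites. Another site of the class lay within 10 kb of 195 sites (7.52%) and within 1 kb of 28, counts that depend on how many sites the coverage floor admitted. They do not show isolation, as 79.5% of the sites had another Myf5 peak of any kind within 10 kb. Over all Myf5 peaks that share was 76.2%.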

How the data were processed

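Peak lists deposited by the authors were used as they stand. BWA 0.7.5 and CASAVA 1.8.2 appear in the submitters' processing notes, as do the builds mm9 and hg19 with no role stated. The peak caller and the joining of replicates were not given in the sources used here. Peaks on chromosome 1 reach position 197068167, while GRCm38 genes there end by 195291439, so positions were taken as mm9. No mm9 genome or annotation was used here, so genes, E-boxes and sequences were not examined. Per the labels' protocols, factor chromatin was fixed for 11 min and sonicated, whereas H4Ac chromatin was native and cut with micrococcal nuclease. The coverage signal, its cutoff and the control coverage are the authors' own values, per the file headers, with no scaling to depth named. Each deposited p-value belongs to 1 peak, per the file headers, and was not used. Widths are in bp.

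Peaks overlapped if they shared 1 bp. Shared peaks were weighted at each whole value of Myf5 coverage to the number of sites without MyoD. Shares have exact (Clopper-Pearson) intervals, and weighted shares and differences normal-approximation ones, at a confidence level of 0.95; medians have order-statistic intervals. Regions close together are not independent, and no test across replicates was possible. The regions, lists and comparisons were chosen with earlier results of these data known. Named positions are the 10 strongest sites, the 3 strongest of 4 H4Ac patterns (all lists, both factors but not GFP, either factor alone), the 3 strongest of the highest and lowest GC bin, and the 3 farthest from MyoD. The steps were tested on simulated data. Alternatives were other coverage floors, gaps to MyoD, weightings and H4Ac rules. The 3 input samples had no list used here. Calculations ran in Python 3.11.15 with scipy 1.17.1, pandas 2.3.3 and numpy 2.4.6; figures were drawn with matplotlib 3.10.9.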

Additional observations from a re-analysis of the deposited data

How the results depend on the processing

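The lower share of H4Ac peaks at strong Myf5 sites without MyoD kept its direction, with an interval under 0, in all 3 lists and under all 16 alternatives each. These were other coverage floors (60, 100, 120), a gap to MyoD of 500 bp or 1 kb, mock regions kept, 4 other weightings, 4 other H4Ac rules, the X chromosome left out, and shared peaks of MyoD coverage under 35, the last added after seeing the data. The differences ran from -16.5 to -5.70 points with MyoD, -11.8 to -5.16 with Myf5 and -11.0 to -4.70 with GFP. H4Ac with MyoD but not GFP differed by -6.27 to -1.46 points, and with Myf5 but not GFP by -3.40 to -0.612. No paired analysis was possible because each group had 1 list. The cause of the following changes was not tested. The number of sites was 7884 with a floor of 60, 877 with 100 and 325 with 120, by construction, and the share with another within 10 kb 17.0%, 2.51% and 0.615%. With a floor of 60 the difference in median width was -17 bp, that in median gap -54 bp and that in MyoD peaks within 1 kb -0.610 points, its interval then including 0, as it also did with a floor of 100 (-1.28). Fewer sites with GC of at most 40% (-0.909 points) and of wide peaks (-1.23) lost their call with a floor of 120, and the excess at 50% to 55% GC with floors of 100 (2.38) and 120 (2.14). Weighted by coverage over cutoff, that excess was no longer seen (-0.224 points, -1.82 to 1.37). MyoD peaks within 10 kb became rarer than at shared sites beyond the interval with floors of 100 (-4.05) and 120 (-12.1), with no MyoD peak within 500 bp (-4.20) or 1 kb (-6.74), weighted also by GC (-3.05), by coverage over cutoff (-2.78) or unweighted (-5.37). The difference in median gap was then 1448 and 4200 bp with those floors, 1545 and 2277 bp with those gaps, and 1818 bp unweighted. The gap rules removed near neighbours only from the sites without MyoD, so the neighbour changes under those rules follow by construction. Unweighted, median width differed by -176 bp and control coverage of at least 10 by -7.72 points. Depth is unknown. The lists hold no coverage below the cutoffs, so a site just under a cutoff cannot be told apart from one with no reads.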
